A study of Homo sapiens with 9 samples.

Results

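The miR-30 family was followed here through its 5 main arms, hsa-miR-30a-5p, hsa-miR-30b-5p, hsa-miR-30c-5p, hsa-miR-30d-5p and hsa-miR-30e-5p, which were taken by name from the 2019 miRNA probes on each array. Each member is measured by 1 probe. The samples came from HMC-1, a line grown from a human mast cell leukaemia, and were made in 3 cultures. From each culture there was an LD library, which is extracellular RNA from the low density part of a sucrose gradient, an HD library, which is extracellular RNA from its high density part, and a library of the RNA of the cells themselves. The 9 libraries form 3 groups of 3, no group had a treatment or a genetic change, and the design text says that libraries of the same number share a culture. All results are from this line, and the labels do not say what carries the RNA in either fraction.

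A miRNA hairpin is cut by Drosha and Dicer, and an arm of the resulting duplex is loaded into an Argonaute protein, where its seed, bases 2 to 8, finds target mRNAs. The 5′ arms of the miR-30 hairpins share a seed and therefore much of their target range. Known targets include BECN1, an autophagy gene, for miR-30a, and integrin beta 3 for the family in breast cancer cells.

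The mature sequences are shown because they carry what the members share and where they part. Sequences of 3 of the 5 members are shown, from the RefSeq table of the build GRCh38.p14. So is 1 more arm that the results below turn on. Entries of 1 chromosome of that table were not used, so a member not shown may still be in RefSeq. The sequences read 5′ to 3′, and capitals mark the seed, bases 2 to 8.
hsa-miR-30a-5p: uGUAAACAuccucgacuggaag
hsa-miR-30e-5p: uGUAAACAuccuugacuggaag
hsa-miR-30c-5p: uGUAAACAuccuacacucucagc
hsa-miR-30c-1-3p: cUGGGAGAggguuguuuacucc

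The main arms shown hold the same 12 bases at the 5′ end. Counted from 1 at the 5′ end, miR-30a-5p and miR-30e-5p are identical at 21 of 22 positions and differ by C13U. miR-30c-5p matches miR-30a-5p at 17 of the 22 positions compared, with the differences C13A, G14C, G18C, G19U and A20C. Among the 2370 mature miRNAs used from that table, without those of 1 chromosome, none outside the family has the seed GUAAACA. With so few differences, signal from a close relative on a probe is possible, and its size was not tested.

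miR-30a-5p comes from MIR30A at chr6:71403595-71403616 on the minus strand, and miR-30e-5p from MIR30E at chr1:40754371-40754392 on the plus strand, inside the span of the gene NFYC. miR-30c-5p is made from 2 hairpins, MIR30C1 at chr1:40757300-40757322 on the plus strand, also inside NFYC, and MIR30C2 at chr6:71377003-71377025 on the minus strand. The mature product of both is the same, so its probe cannot tell them apart. The hairpins MIR30E and MIR30C1 lie 2837 bases apart and MIR30A and MIR30C2 lie 26519 bases apart, so that the family is arranged in pairs of neighbours.

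All 5 members were bright in cells, dimmer in LD and at the level of empty spots in HD. The values that follow are the authors' normalized signal, an intensity scaled so that the median detected miRNA probe of each array is 25. They are relative levels, since total RNA per fraction is not part of these data. In the cell libraries, as in other bulk RNA, fewer cells of a type and less RNA per cell cannot be told apart. LD and HD are extracellular RNA, so their signal is not a level per cell. A spot counted as detected where it passed the authors' limit, the mean of the blank spots plus 2 SD.

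The arrays had 303 to 368 detected miRNA probes in LD, 254 to 329 in HD and 440 to 506 in cells. The number of arrays limits the precision. Names of the deposited files place the arrays on 3 slides: the cell arrays on the first, the HD arrays with LD 1 on the second, and LD 2 and LD 3 on the third. A difference between a fraction and cells therefore cannot be told apart from a difference between slides, and LD 1 alone can be set against HD within a slide. Of 5 miRNAs known from blood cells and mast cells, 5 were detected on all LD arrays, 1 on all HD arrays and 5 on all cell arrays, with a summed signal of 482 to 1032 in LD, 13.2 to 56.0 in HD and 2123 to 4045 in cells. None of 6 epithelial miRNAs, none of 4 muscle miRNAs and not miR-122-5p of liver was detected on all arrays of any group. Of 2 neural miRNAs, 1 was detected on all cell arrays, and miR-126-3p of endothelium on all LD and all cell arrays. The summed signal of 3 red cell and serum miRNAs was 32.9 to 106 in LD, 68.2 to 597 in HD and 0 to 52.4 in cells. The part of these marker differences in the results below was not tested.

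miR-30c-5p, which lowers the lipid transfer protein MTTP in liver, had a normalized signal of 25.02, 67.9 and 53.3 on LD arrays 1 to 3. It had 13.4 on HD 1 and 13.8 on HD 3 and was not detected on HD 2. In cells it had 124, 227 and 173. All cell arrays lay above all LD arrays and all LD arrays above all HD arrays, and LD 1 was the lowest of its group. The geometric means were 44.9 in LD, 12.9 in HD and 170 in cells, with SDs of 0.75, 0.14 and 0.43 on the log2 scale (n = 3 each).

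miR-30b-5p, which with miR-30d targets the glycosyltransferase GALNT7 in melanoma cells, was not detected on LD 1 and had 55.2 and 58.1 on LD 2 and LD 3. It was detected at 13.4 on HD 1 and on no other HD array, and it had 116, 241 and 184 in cells. The LD group is thus split: the array that shares a slide with HD was below the limit, and the other LD arrays were well above every HD array. The geometric means were 35.1 in LD, 12.3 in HD and 173 in cells, with log2 SDs of 1.20, 0.11 and 0.54 (n = 3 each), an undetected spot being given the floor, the smallest detected value on that array.

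miR-30d-5p had 16.9, 41.4 and 52.8 on the LD arrays, was detected on no HD array, and had 80.0, 192 and 137 on the cell arrays. The groups did not overlap, and LD 1 was again the lowest LD array. Its geometric means were 33.3 in LD and 128 in cells, with log2 SDs of 0.86 and 0.64 (n = 3 each), against a mean floor of 12.1 in HD.

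miR-30e-5p, the nearest relative of miR-30a-5p shown above, had 22.02, 29.4 and 17.9 on the LD arrays, was detected on no HD array, and had 79.9, 203 and 173 on the cell arrays. The groups did not overlap, and LD 3, not LD 1, was the lowest LD array for this member. Its geometric means were 22.6 in LD and 141 in cells, with log2 SDs of 0.36 and 0.72 (n = 3 each).

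miR-30a-5p was not detected on LD 1 and had 14.8 and 16.4 on LD 2 and LD 3. On the HD arrays it was detected on HD 2 alone, at 13.6, and in cells it had 57.8, 117 and 88.1. Cells stood apart from both fractions, while the LD and HD values overlapped near the floors, which lay between 9.60 and 13.5 over all arrays. Its geometric means were 14.9 in LD, 12.8 in HD and 84.1 in cells, with log2 SDs of 0.14, 0.09 and 0.51 (n = 3 each). For each of the 5 members the first culture gave the lowest and the second culture the highest cell value.

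**Figure D1:**
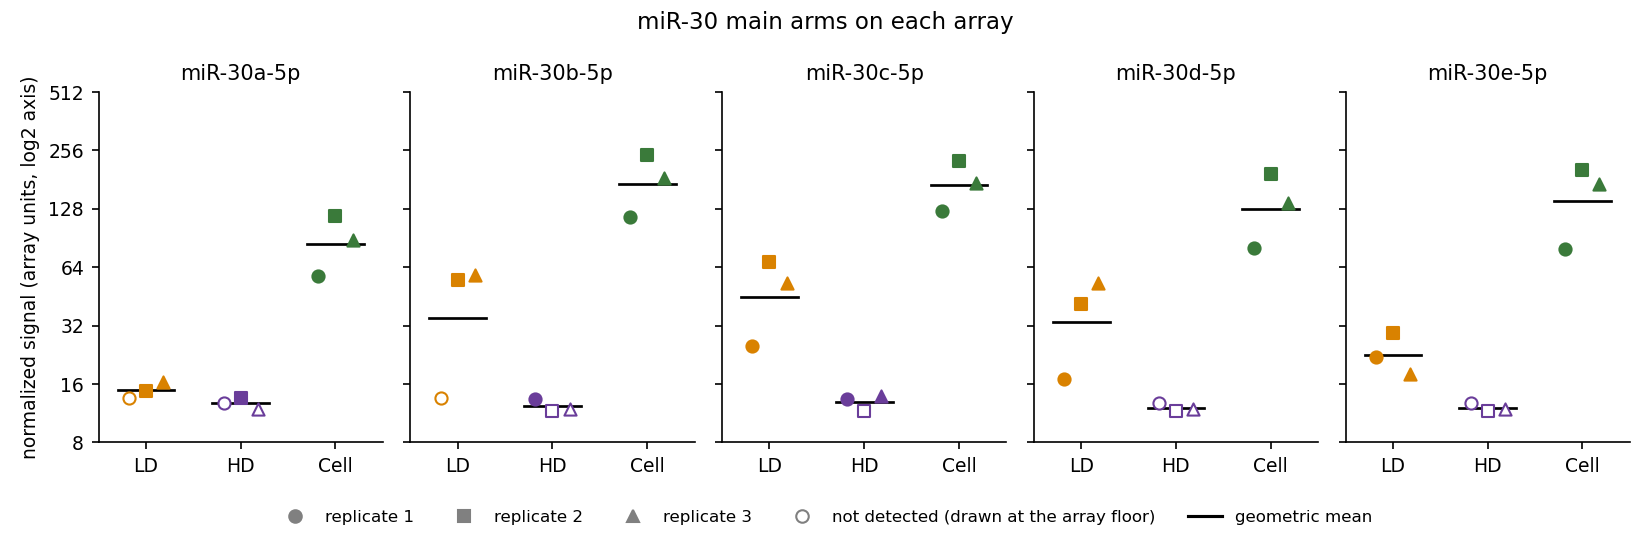
Normalized signal of each miR-30 main arm (log2 axis, array units) on the LD, HD and cell arrays; symbols mark the replicate, open symbols are undetected spots drawn at the floor of their array, and bars are geometric means of 3 arrays. Cell values run from 57.8 to 241, LD values reach 67.9, and no HD value exceeds 13.8.

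The raw spots show how far each value rose out of the array background. Set against the blank spots of their own array, the 15 LD member spots ran from -0.01 to 11.2 SD of the blank spots above the blank mean with a median of 3.71, the 15 HD spots from -1.62 to 2.36 with a median of 0.64, and the 15 cell spots from 10.5 to 47.6 with a median of 28.5. The limit was passed by 13 spots in LD, 4 in HD and 15 in cells. The 4 HD spots passed it narrowly, at 2.09 to 2.36 SD, and 6.11% to 7.57% of the 1031 blank spots of the HD arrays passed it as well. The HD values of the members were thus not well above background. On LD 1 the members reached 3.71 SD at most, with 3 of 5 detected, whereas LD 2 ran from 2.28 to 10.5 SD and LD 3 from 3.16 to 11.2 SD.

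**Figure D2:**
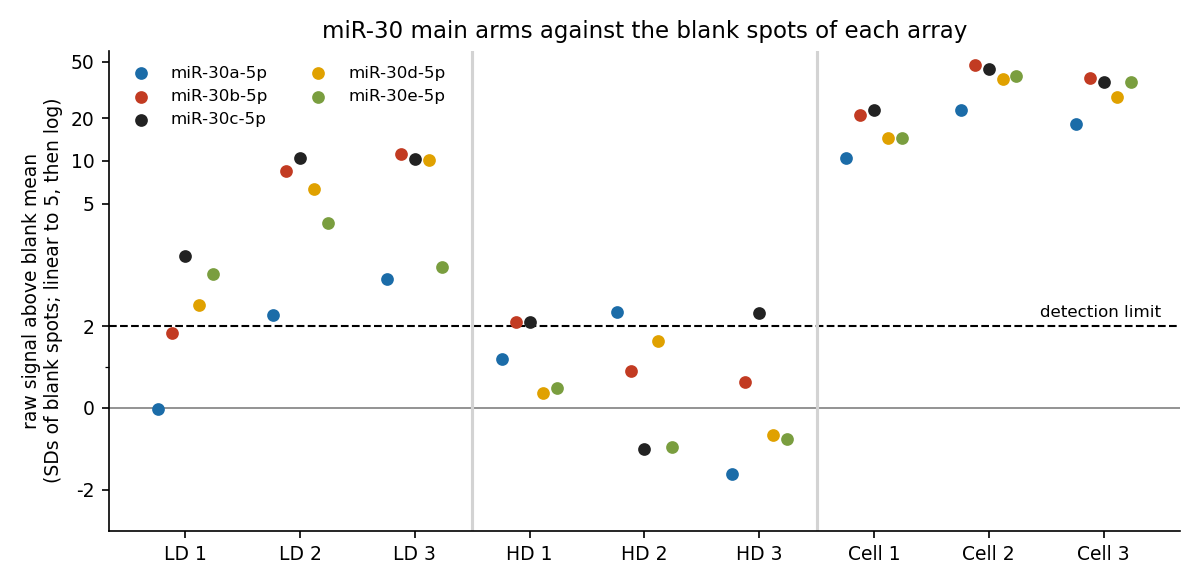
Raw signal of each member above the blank mean of its array, in SDs of the blank spots (linear up to 5, logarithmic above), for LD, HD and cell arrays; the dashed line is the detection limit at 2 SD. HD spots gather between -1.62 and 2.36, LD spots spread from -0.01 to 11.2, and all cell spots lie at 10.5 or higher.

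HD was set against cells to see which cellular miRNAs the dense fraction holds. All 5 members were lower in HD, and the groups did not overlap for any of them. miR-30d-5p was at least 10.6-fold lower (log2 change -3.40 ± 0.37 SE, limma adjusted p = 1.01e-05) and miR-30e-5p at least 11.7-fold lower (log2 change -3.54 ± 0.35, adjusted p = 4.91e-06), both undetected in HD. miR-30b-5p, detected on 1 HD array, had a log2 change of -3.81 ± 0.43 (SE; limma adjusted p = 1.25e-05), and miR-30c-5p, detected on 2, had a log2 change of -3.72 ± 0.34 (adjusted p = 2.62e-06). miR-30a-5p, detected on 1, had a log2 change of -2.72 ± 0.30 (adjusted p = 1.01e-05), and its fold of 6.59 understates the change, as do those of the other partly detected members. The HD values of all members sit at the floor, so these changes follow the level in cells and do not rank the members. The sizes, bounds included, apply to the authors' background-subtracted and globally normalized scale. Without that scaling the changes were smaller, at -3.21 for miR-30d-5p and -3.35 for miR-30e-5p. In the authors' log2 table, which follows the raw intensity, the changes in HD ran from -0.61 for miR-30b-5p to -0.33 for miR-30a-5p, with -0.49 for miR-30d-5p and -0.58 for miR-30e-5p. With quantile normalization of the raw intensity they ran from -0.65 to -0.33, and with normexp before it from -0.99 to -0.46. All 5 were called lower under each. So were 144 of 331 tested probes in the log2 table, 144 of 334 with quantile normalization and 139 of 334 with normexp.

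These tests were fitted over the 334 probes detected on all 3 arrays of a group, and 49.4% of those were called lower in HD at an adjusted p under 0.05, against 30.5% called higher. Lower without overlap in HD were 49.1% of the tested probes. All 5 members passed that filter through the cell arrays, where they are high, and miR-30c-5p, miR-30d-5p and miR-30e-5p through the LD arrays too, so their count is a description. Their median log2 change was -3.54, beside -0.70 over all tested probes. Among other conserved families, the 9 tested members of let-7 with miR-98 and the 6 of the miR-15/16 seed family were all lower too, with medians of -5.38 and -5.36.

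LD was set against cells to ask the same of the light fraction. All 5 members were lower in LD as well, in every culture and without overlap, and were detected in 13 of 15 LD spots. miR-30e-5p had a log2 change of -2.64 ± 0.35 (SE; limma adjusted p = 0.000105), and was 6.22-fold lower in LD with all arrays detected. miR-30c-5p and miR-30d-5p, also detected throughout, were 3.78-fold lower (log2 change -1.92 ± 0.34, adjusted p = 0.000672) and 3.85-fold lower (log2 change -1.94 ± 0.37, adjusted p = 0.00105). miR-30b-5p had a log2 change of -2.30 ± 0.43 (adjusted p = 0.000905) and miR-30a-5p one of -2.50 ± 0.30 (adjusted p = 4.52e-05), each with LD 1 at its floor, so that both sizes are understated and the members were not ranked. In the authors' log2 table the changes in LD ran from -0.36 to -0.20, and that of miR-30c-5p, -0.22, was not called (adjusted p = 0.0757).

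Of the tested probes, 44.0% were called lower in LD and 16.8% higher, and 46.1% were lower without overlap. The members' median log2 change was -2.30, beside -0.54 over all tested probes. All 9 let-7 and miR-98 probes were lower in LD, with a median of -3.72, and 5 of 6 in the miR-15/16 family, with a median of -3.04.

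The comparison of LD with HD asks how the released RNA divides by density. Not all members were called, and with HD at or near the floors no test here decides whether the members differ from each other. Of the 5, 3 were called higher in LD, beside 25.7% of all tested probes, while 26.3% were called lower. miR-30c-5p had a log2 change of 1.80 ± 0.34 (limma adjusted p = 0.00131), a fold of 3.48 that is set by HD spots at or just above the detection limit and understates the change, with 2 HD arrays detected. In the authors' log2 table its change was 0.36. miR-30d-5p was at least 2.75-fold higher (log2 change 1.46 ± 0.37, adjusted p = 0.00707). miR-30b-5p, detected on 2 LD arrays and 1 HD array, had a log2 change of 1.52 ± 0.43 (adjusted p = 0.0122), made up of 0.01 in the first culture, 2.25 in the second and 2.28 in the third.

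miR-30e-5p did not pass the threshold. It had a log2 change of 0.90 with a 95% interval of 0.12 to 1.69 (adjusted p = 0.0533) although its LD arrays all lay above the HD floors. For miR-30a-5p the change was 0.22 with an interval of -0.44 to 0.88 (adjusted p = 0.665), an interval that holds 0 as well as changes near that of miR-30e-5p. LD and HD did not overlap for 4 of the 5 members, beside 30.8% of all tested probes higher in LD without overlap. For miR-30b-5p that rests on the floor of LD 1, 13.5, standing just above the spot on HD 1 at 13.4. The members' median log2 change was 1.46, beside 0.01 over all tested probes, and the medians were 1.54 for let-7 with miR-98 (7 of 9 higher) and 1.50 for the miR-15/16 family (4 of 6 higher). HD enters this comparison and the one with cells, and LD likewise, so the 3 comparisons are not independent.

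**Figure D3:**
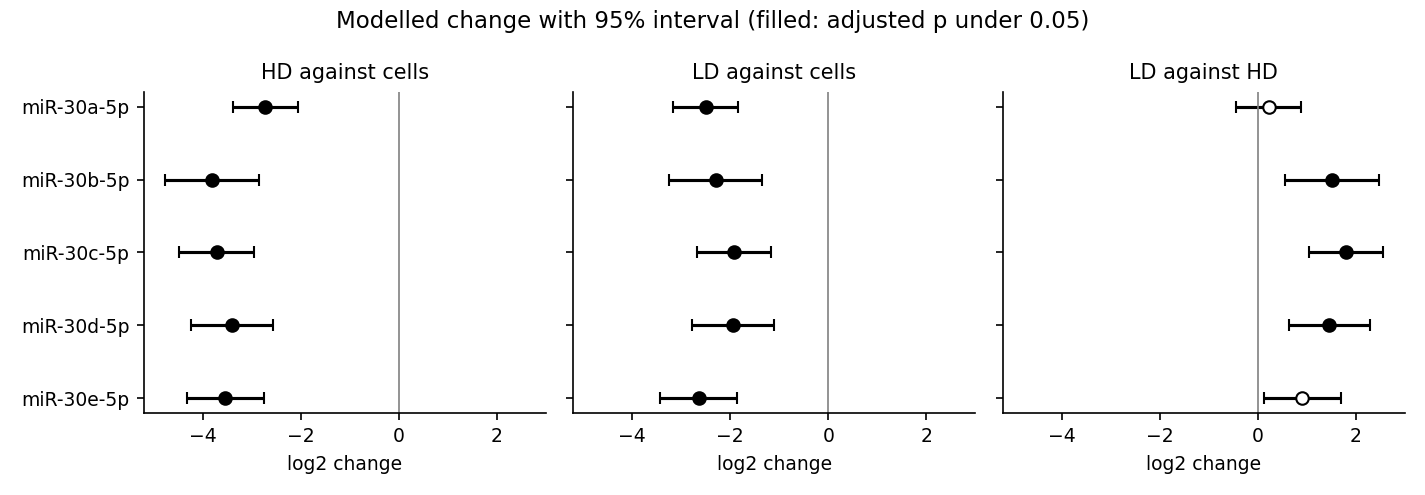
Modelled log2 change of each member with its 95% interval for HD against cells, LD against cells and LD against HD; filled points have a limma adjusted p under 0.05. All members lie below 0 against cells in both fractions, and between LD and HD the points run from 0.22 for miR-30a-5p to 1.80 for miR-30c-5p.

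The calls between LD and HD were not kept by LD 1 alone. In a fit with LD 1 as the lone LD array, the log2 changes were 1.15 for miR-30c-5p, 0.78 for miR-30d-5p and 0.36 for miR-30b-5p. They were 1.23 for miR-30e-5p and 0.35 for miR-30a-5p. LD 1 shares its slide with the HD arrays, but this fit keeps the culture term. The first cell array, on another slide, therefore enters these changes too. miR-30b-5p and miR-30a-5p were undetected on LD 1 and stood at its floor. Directly, LD 1 minus HD 1 gave log2 differences of 0.90 for miR-30c-5p, 0.40 for miR-30d-5p and 0.01 for miR-30b-5p. They were 0.78 for miR-30e-5p and 0.08 for miR-30a-5p, beside 0.90 and 0.22 with 3 LD arrays. In the fit, the lone LD array is assumed to vary like the other groups. Against cells it gave log2 changes between -3.45 and -2.31, with all 5 members called lower beside 121 of 334 tested probes. With the slide as a random block beside the culture, 1 member was still called between LD and HD, miR-30c-5p. The call for miR-30b-5p was lost without HD 2, HD 3 or LD 2, and that for miR-30d-5p without HD 2. miR-30e-5p was called without HD 1, LD 3 or the first cell array. Over all other settings, the LD against HD call was lost in 13 of 26 for miR-30b-5p and 6 of 25 for miR-30d-5p. It was lost in 2 of 26 for miR-30c-5p, and miR-30e-5p was called in 6 of 25.

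The comparisons with cells depended on how the arrays were scaled. Spike controls, synthetic RNAs added to each sample, had median signals of 1307 to 4891 in LD, 399 to 2249 in HD and 4760 to 12632 in cells. Scaled on them, the median of all tested probes moved to 2.19 for HD against cells and 1.68 for LD against cells, and none of the members was called in either. In HD the members then had changes of -0.92 for miR-30b-5p, -0.83 for miR-30c-5p, -0.65 for miR-30e-5p, -0.51 for miR-30d-5p and 0.17 for miR-30a-5p. In LD they lay between -0.41 for miR-30e-5p and 0.31 for miR-30c-5p. Such a rescaling moves all probes of an array alike, so it leaves the distance of the members from the median probe nearly as it was. The direction of the change itself held on the authors' scale, without scaling, and when the scale came from the 81 probes that all 9 arrays detected.

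Without any scaling the 5 members were still called lower in HD, beside 111 of 334 tested probes, with changes from -3.62 to -2.52. None of the members was called lower in LD, with changes from -1.78 to -1.06 and limma adjusted p from 0.0700 to 0.283. The split of all calls moved with the scaling too. For HD against cells it was 102 higher and 165 lower on the authors' scale, and 76 and 111 without scaling. It was 55 and 220 on the common probes, those detected on every array, and 223 and 56 on the spike controls. For LD against cells it was 56 higher and 147 lower on the authors' scale, 46 and 49 without scaling, 20 and 187 on the common probes, and 202 and 31 on the spike controls. For LD against HD it was 86 higher and 88 lower on the authors' scale, 71 and 29 without scaling, 119 and 53 on the common probes, and 52 and 107 on the spike controls.

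**Figure D4:**
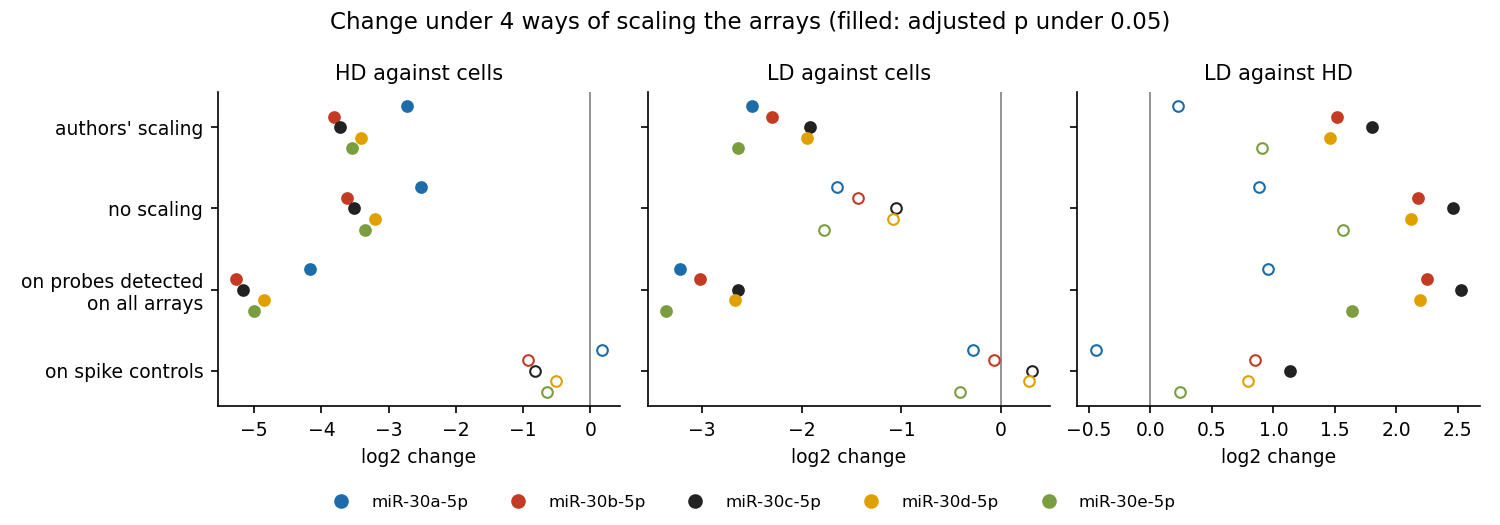
Log2 change of each member for HD against cells, LD against cells and LD against HD under 4 ways of scaling the arrays; filled points have a limma adjusted p under 0.05. On the spike controls the points of both comparisons with cells lie between -0.92 and 0.31 and none is filled, whereas on the authors' scale all are filled and lie between -3.81 and -1.92.

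Within an array, the ratio of members does not depend on scaling. On LD 2 and LD 3, where both were detected, the log2 ratio of miR-30a-5p to miR-30b-5p was -1.90 and -1.82, against -1.06 to -1.003 on the cell arrays. The same shift for miR-30a-5p against miR-30c-5p was -0.93 and against miR-30d-5p -0.98. These miR-30a-5p spots stood 2.28 and 3.16 SD above the blank mean, near the limit of 2 SD. Over all arrays with floors, its shifts were -0.20 against miR-30b-5p, -0.58 against miR-30c-5p and -0.56 against miR-30d-5p. miR-30b-5p moved by 1.01 against miR-30e-5p (0.34 with floors), and miR-30c-5p by 0.72 against miR-30e-5p. The shifts against miR-30e-5p came from LD 2 and LD 3: on LD 1 the log2 ratio of miR-30c-5p to miR-30e-5p was 0.18, within the 0.0027 to 0.64 of the cell arrays, and that of miR-30d-5p to miR-30e-5p was -0.38. None of these shifts passed the test: over all arrays with floors included, 0 of 10 pairs stood apart between LD and cells, and the smallest exact two-sided permutation p was 0.2 (0.462 adjusted over 30 ratio tests), where 3 against 3 arrays allow 0.1 at best. Ratios in HD rest on floors and were not read.

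Of the opposite arms of the same hairpins, 6 were on the array and 2 were tested, of which 1 was high in HD and the other in cells. miR-30c-1-3p, the 3′ arm of MIR30C1 printed above, was detected on no LD array, had 52.9, 104 and 31.5 on the HD arrays, and had 13.2 on the second cell array and no other. All HD arrays lay above all others. Its HD spots stood 5.27 to 17.99 SD of the blank spots above the blank mean, whereas its LD spots reached 1.34 SD and its cell spots 2.60 SD. It was called higher in HD than in cells, with a log2 change of 2.32 ± 0.33 (SE; limma adjusted p = 7.67e-05), and lower in LD than in HD, at least 4.56-fold (adjusted p = 0.000301). It passed the filter through the HD arrays alone, where it is high, so these calls are a description. Between LD and cells its change was 0.13 (adjusted p = 0.73), with nearly all values at floors. On the spike controls that change was 2.36 (adjusted p = 2.39e-06), again between floors.

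The main arm of the same hairpin, miR-30c-5p, was called lower in HD, as given above; the difference between the changes of the 2 arms was not tested. miR-30c-1-3p has 54.5% G and C, miR-30c-5p 43.5%, miR-30a-5p 45.5% and miR-30e-5p 40.9%. Of the probes with a RefSeq sequence used here, those called higher in HD than in cells had a median of 70.8% (n = 85). Those called lower had 47.6% (n = 134). The part of base composition in these changes was not tested. Scaled on the common probes, the change of miR-30c-1-3p against cells was 0.87 and no longer called (adjusted p = 0.0601), and without scaling its change in LD against HD was -1.53 and not called (adjusted p = 0.141).

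miR-30e-3p is the 3′ arm of MIR30E and targets the NF-kappaB inhibitor NFKBIA in glioma cells. Like its main arm it was higher in cells than in both fractions, but unlike its main arm it was not detected on all LD arrays. It had 13.6 on LD 1 and was not detected on the other LD arrays, had 13.9 on HD 2 and was not detected on the other HD arrays, and had 49.3, 81.6 and 62.1 in cells. Cells stood above both fractions, with log2 changes of -2.29 ± 0.28 in HD (SE; limma adjusted p = 2.72e-05) and -2.36 ± 0.28 in LD (adjusted p = 4.87e-05). On the spike controls these were 0.60 and -0.14, and neither was called. miR-30e-3p passed the filter through the cell arrays alone, where it is high, so its calls against cells are a description. In LD against HD the log2 change of miR-30e-3p was -0.07 (limma adjusted p = 0.963), beside 0.90 for miR-30e-5p. The difference between these arms was not tested.

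The remaining arms were sparse. miR-30a-3p was detected at 14.7 on LD 2, on no HD array, and at 17.4 and 26.7 on the first and second cell arrays. miR-30b-3p was detected at 34.8 on HD 2 and at 15.8 on the third cell array, miR-30c-2-3p at 18.2 on the first cell array alone, and miR-30d-3p on no array. None of these 4 was detected on all arrays of a group, and none was tested.

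**Figure D5:**
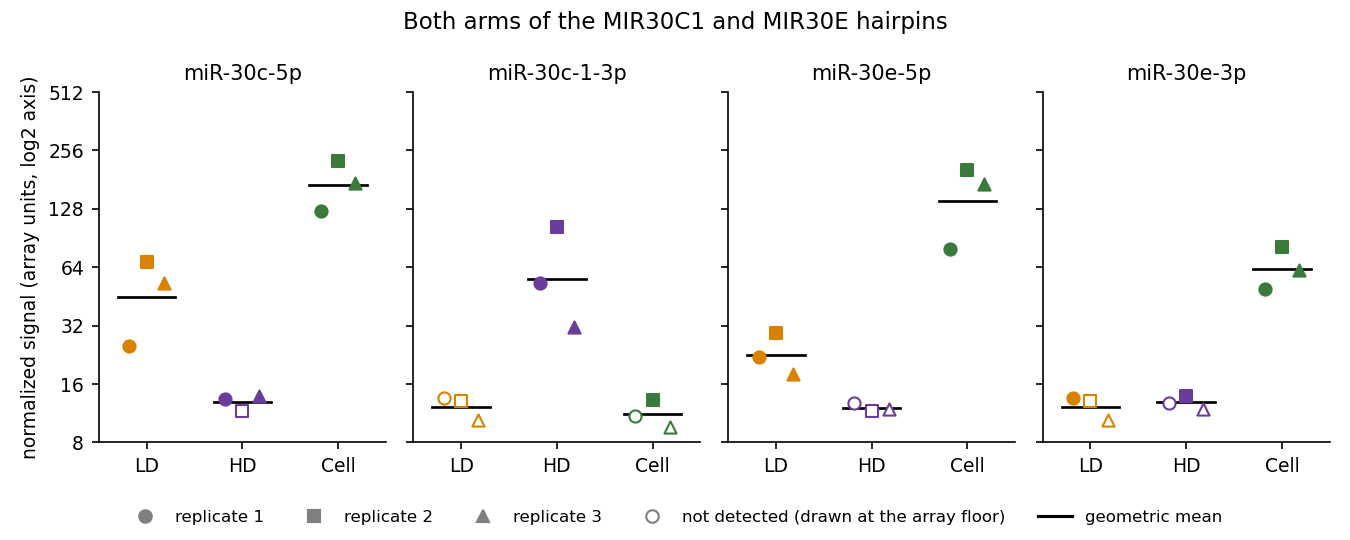
Normalized signal (log2 axis, array units) of both arms of MIR30C1 and MIR30E on LD, HD and cell arrays, with open symbols for undetected spots at the array floor and bars for geometric means of 3 arrays. The HD values of miR-30c-1-3p, 31.5 to 104, lie above its LD and cell values, whereas miR-30c-5p, miR-30e-5p and miR-30e-3p are highest in cells.

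The probes whose pattern over the 9 arrays was most like the members' mean profile were sought among 268 probes detected on all cell arrays. The 5 nearest were miR-142-3p, a miRNA of blood cells, with a Pearson r of 0.999, miR-195-5p, which has the miR-15/16 seed, with 0.997, miR-151b with 0.996, and miR-29c-3p and miR-29b-3p, known to repress collagen genes, with 0.995 and 0.994. The median r of the candidates was 0.792, and the members correlated with each other at 0.890 to 0.995. All points share the 3 groups, the arrays and the floors of HD, so a high r says mainly that a probe was high in cells, low in LD and at the floor in HD. The 5 had log2 changes of -5.95 to -3.10 in HD against cells, -3.88 to -2.08 in LD against cells and 1.02 to 2.28 in LD against HD. As with the members, HD was nearly empty for them: miR-29c-3p was detected on 2 HD arrays and the other 4 on none.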

How the data were processed

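RNA was labelled with Hy5 and hybridised to 1-colour locked nucleic acid arrays, per the labels' protocols; the scanner and its software are not stated there. Per the file headers, the authors deposited an intensity per spot in 3 forms, raw, background-subtracted and globally normalized, and a table of log2 values for all arrays. Setting these columns against each other showed that the authors subtracted the mean of the 1031 blank spots trimmed by 5%, left spots under that mean plus 2 SD empty, and scaled each array to a median of 25. The log2 table correlated at 0.986 to 0.998 with log2 raw intensity and served as an alternative.

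Computed here: undetected spots took the smallest detected value on their array, 25 spots marked NG were left out, and log2 values of the 334 probes detected on all arrays of a group were fitted with limma 3.58.1 (R 4.3.3; group and culture as terms, 4 residual and 6.05 prior degrees of freedom, two-sided, Benjamini-Hochberg over all 334). Folds against a group detected on no array are lower bounds from the floors. Whether p-values hold biological or technical spread cannot be separated, since each culture gave 1 array per group. Same-numbered samples are paired by the design text; their deviations correlated at -0.282 to 0.209, with 1 pair over 0.1. The members, the arms of their hairpins, the other families and the marker lists were chosen with earlier results of these data known, and the nearest probes by the highest Pearson r. The fit was tested on simulated data.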

Additional observations from a re-analysis of the deposited data

How the results depend on the processing

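Of 26 other settings, 24 gave 5 members called lower in HD than in cells, where the main fit called 49.4% of all tested probes lower. The count became 0 on the spike controls and 3 of 3 with undetected values left missing, where miR-30d-5p and miR-30e-5p have no HD value. The 5 called for LD against cells became 0 without scaling, 0 on the spike controls and 3 with log2 of the value plus 1. The 3 called for LD against HD became 1 with slide as a random block and culture kept, 1 on the spike controls, 1 with undetected values left missing, 1 without culture 2, 1 without culture 3 and 0 without LD replicates 2 and 3. Apart from leaving out HD replicate 2, other settings moved no count of members by over 1.5 times. Leaving out 1 replicate at a time gave 5 to 5, 5 to 5 and 1 to 4 members called, the 1 being without HD replicate 2. No member is detected on all 9 arrays, so that filter gave no value. The fit without LD replicates 2 and 3, and that with slide and culture together, were chosen after seeing the data.

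The pairing by culture changed no call of a member: with no replicate block, 5, 5 and 3 members were called, and 267, 201 and 170 of all probes, against 267, 203 and 174 with it.

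On the spike controls the sign turned for miR-30a-5p (0.17) and miR-30e-3p (0.60) in HD against cells, for miR-30c-5p (0.31) and miR-30d-5p (0.28) in LD against cells, and for miR-30a-5p (-0.45) in LD against HD. For miR-30c-1-3p in LD against cells, a small change between floors, it turned to -0.59 on the common probes, -0.0086 with quantile normalization, -0.0090 with normexp, -0.013 in the deposited table, -1.28 with log2 of the value plus 1 and ran from -0.0113 to 0.37 with 1 replicate left out. For miR-30e-3p in LD against HD it turned to 0.59 without scaling, 0.66 on the common probes, 0.0178 with quantile normalization, 0.012 with normexp, 0.02 in the deposited table, 0.69 with undetected values missing, 0.090 with slide and culture, from -0.24 to 0.0148 with 1 replicate left out (0.0061 without LD replicate 2), and 0.26 without LD replicates 2 and 3. The causes were not tested.

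Counts over all probes moved by over 1.5 times as follows. With undetected values missing, 140 were called in HD against cells and 113 in LD against HD. Among the 81 common probes, 58, 44 and 54 were called, fewer because fewer were tested. For LD against cells, 133 were called with slide and culture, 95 without scaling and 133 without LD replicates 2 and 3. For LD against HD, 100 were called without scaling and 113 without culture 2. HD signals near the blank spots limit the changes of the main arms in that fraction.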
